A study of Mus musculus with 9 samples.

Results

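The mitochondrial ribosomal protein genes were taken as all gene symbols of the count table that begin with Mrps or Mrpl followed by a digit, and 76 of the 23337 listed symbols met this rule. Of these, 29 are named for the small subunit (Mrps) and 47 for the large subunit (Mrpl). The rule used the symbol and no measured value. RNA was sequenced from immortalised Cebpb-ko mouse embryonic fibroblasts (MEFs), which were derived on a C57BL/6 x 129 background and stably transfected under Zeocin selection. The cells carried the empty vector (EV), rat C/EBPβ-LAP or rat C/EBPβ-LIP, with 3 libraries per group, and all groups, EV included, carry the knockout of mouse Cebpb. Both isoforms of the transcription factor C/EBPβ are translated from 1 mRNA, LAP as the longer protein and LIP as a truncated form without the transactivation domains. The comparisons ask how each isoform changes the transcriptome of cells that have neither. Whether the stable cells were pools or single clones, and whether the libraries of a group came from separate cultures, is not given in the sources used here, so p-values measure only the spread between these libraries.

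The mitochondrial ribosome translates the few mRNAs encoded by mitochondrial DNA, all of which code for subunits of the respiratory chain and the ATP synthase. Its rRNAs come from mitochondrial DNA, whereas all its proteins are encoded in the nucleus, made in the cytosol and imported. The small subunit holds the decoding site and the large subunit the peptidyl transferase centre. Part of the proteins have homologs in bacterial ribosomes and the others are special to mitochondria. NRF1, GABPA of the ETS family and YY1 are known regulators of nuclear genes for mitochondrial proteins.

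The promoters of these genes were searched for short motifs of these factors and of C/EBP. RefSeq (GRCm38.p6) gave 73 promoter windows for 67 of the 76 genes, each with 250 bases before and 50 bases after a listed start. The C/EBP motif TTGCNNAA, read on both strands, was found in 3 of the 73 windows (4.11%), against 10.8% of all 32851 windows and 8.01% of the 9073 windows of genes averaging 50 counts or more. The ETS motif CCGGAAGT was in 12 windows (16.4%, against 3.89% of all windows and 8.43% of those of expressed genes). The YY1 motif AAGATGGC was in 12 windows (16.4%, against 2.75% and 4.62%), and the NRF1 motif GCATGCGC in 8 windows (11%, against 2.71% and 5.47%). These shares are descriptions of letters, not of binding. Below are the 3 members with the C/EBP letters, the single NRF1 stretch on chromosome 16, where 3 members described further on are located, and a YY1 match in the promoter window of Mrps11, which stands head to head with Mrpl46. Each is printed 5′ to 3′ on the strand of the gene, with the motif in capitals.
Mrpl28, chr17:26123324-26123353, plus strand, C/EBP: tcccaacaggcTTGCCAAAgctgctgggga
Mrpl42, chr10:95502007-95502036, minus strand, C/EBP: ccccgccttctTTCTGCAActagggctact
Mrps22, chr9:98601767-98601796, minus strand, C/EBP: gcttgccttgcTTGCACAAagattttagta
Mrpl39, chr16:84735350-84735379, minus strand, NRF1: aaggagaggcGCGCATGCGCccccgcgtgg
Mrps11, chr7:78783013-78783042, plus strand, YY1: ctacgggcgccGCCATCTTtctgtcttccc

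The C/EBP letters begin 168, 76 and 106 bases before the starts of Mrpl28, Mrpl42 and Mrps22. In Mrpl39 the NRF1 motif overlaps its own reverse complement, so that the stretch in capitals is 10 bases long, and it begins 125 bases before the start. Mrps11 (78783131 to 78792988, plus strand) and Mrpl46 (78775341 to 78783089, minus strand) stand head to head on chromosome 7 with 41 bases between their starts, and the YY1 match printed for Mrps11 lies within Mrpl46.

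The libraries held between 24839139 and 33522082 counts on genes. The members took 89929 to 147991 of them, and their median mean count was 1328, at which counting alone gives an error of 2.74%. Fewer cells of a type and less RNA per cell cannot be told apart in such bulk samples. Of 7 fibroblast markers, 6 had over 1 CPM (counts scaled to library size by the TMM method) in every library, and Pdgfrb lay between 0.0969 and 1.73 CPM. Col1a1, Col1a2 and Pdgfrb were lower in every LIP library than in every EV and LAP library, whereas Vim, Thy1, Fn1 and S100a4 overlapped. Among 9 markers of other cell types, Ptprc, Cd52 and Pecam1 were at 0 in all libraries. The keratin gene Krt8 was at 397 to 477 CPM in EV, 387 to 738 CPM in LAP and 502 to 792 CPM in LIP. Cdh1 lay between 0.786 and 3.69 CPM, and Epcam, Cdh5, Alb and Sox10 did not exceed 0.581 CPM in any library. The summed level of these 9 markers was 401 to 480 CPM in EV, 389 to 742 CPM in LAP and 503 to 795 CPM in LIP. Their part in the results was not tested. Reads on mouse Cebpb, the deleted gene, were at 30.3, 25.2 and 30.5 CPM in EV, 33.2, 25.5 and 30.2 CPM in LAP and 33.3, 28.3 and 31.8 CPM in LIP, so they do not separate the groups and do not check the labels.

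All 76 members were detected, and their levels spanned a wide range. Mean levels ran from 0.675 to 139 CPM with a median of 45 CPM, and the middle of the distribution, from the 25th to the 75th percentile, lay between 30.8 and 61.9 CPM. Of the members, 72 had a mean of at least 300 counts and only Mrps10 had fewer than 50. Per kilobase of transcript, Mrpl33, a small protein of the large subunit, was the most abundant with 212 CPM per kb. It was followed by Mrpl20, which binds large-subunit rRNA, with 108 CPM per kb, and by Mrpl12, the stalk protein that contacts translation factors, with 106 CPM per kb. Mrpl20 and Mrpl12 differed by less than their spread between libraries. The ranking depends on the transcript chosen. Taking the shortest annotated ones, Mrpl33 stayed at 212 CPM per kb, beside 211 for Mrpl17, 209 for Mrps18b, 208 for Mrps17 and 206 for Mrpl11. The lowest levels per kilobase were those of Mrps10 (0.663 CPM per kb), Mrpl48 (0.903 CPM per kb) and Mrps2 (1.02 CPM per kb). With the shortest annotated transcript, Mrpl48 rose to 7.62 CPM per kb, since its transcripts range from 508 to 4285 bp. Mrps2 and Mrps10 are small-subunit proteins shared with bacteria, and Mrpl48 belongs to the central protuberance of the large subunit.

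The counting limits what single levels mean. Of the transcripts of the members, 29 share no stretch of 50 bases (the read length) with another gene and 17 share more than 20% of their length. For Mrps10 the share was 24.8%, for Mrps2 0%, for Mrpl33 30.3% with Gm43809 and for Mrpl23 76.4% with the pseudogene Mrpl23-ps1. It was 42.5% for Mrpl24 with Rrnad1 and 32.2% for Mrps6 with Slc5a3 and an overlapping transcript. How reads with several alignments were handled and whether strand was used is not given in the sources used here, so levels of these genes are uncertain. Exons of 32 members overlap those of another gene.

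The paralogs Mrps18a, Mrps18b and Mrps18c descend from the same bacterial protein but take different places in the mitochondrial ribosome. Mrps18b was the most abundant of them, at 69.9, 66.3 and 55.0 CPM in EV, 81.8, 84.5 and 64.4 CPM in LAP and 90.9, 85.6 and 52.2 CPM in LIP. Mrps18a was at 36.2, 35.5 and 36.1 CPM in EV, 36.6, 56.1 and 33.2 CPM in LAP and 43.6, 48.9 and 37.5 CPM in LIP. Mrps18c was at 25.7, 26.1 and 28.1 CPM in EV, 25.6, 57.1 and 26.2 CPM in LAP and 26.3, 35.3 and 22.7 CPM in LIP. Per kilobase, the paralogs were at 67.0 (Mrps18b), 45.7 (Mrps18a) and 47.6 CPM per kb (Mrps18c), so that Mrps18a and Mrps18c change places. None of the paralogs passed the threshold in any comparison, and Mrps18b shares 63.7% of its transcript with other genes.

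In EV the members varied little between libraries, and a single LAP library stood apart. The median coefficient of variation over the members was 6.13% in EV, 25.7% in LAP and 13.6% in LIP, against 9.47%, 16.9% and 19% over all genes averaging 50 counts or more. The summed level of the 76 members was 3414, 3423 and 3210 CPM in EV, 3489, 5318 and 3367 CPM in LAP and 3671, 3784 and 3111 CPM in LIP. The sum in LAP replicate 2 exceeded that of every other library. Its members had a median log2 deviation of 0.63 from the EV mean, whereas the medians in the other LAP and LIP libraries lay between -0.056 and 0.13. In this library 71 of the 76 members were above every EV library, compared with 37.5% of all genes averaging 50 counts or more. In LAP replicates 1 and 3 the numbers were 27 and 22 (all genes 25.4% and 25.6%), and in LIP replicates 1, 2 and 3 they were 50, 44 and 17 (all genes 30%, 34.5% and 35.9%). In LIP replicate 3, 33 members were below every EV library, beside 6 and 16 in LIP replicates 1 and 2. The share of all genes below every EV library was not determined, so these counts have no background.

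**Figure D1:**
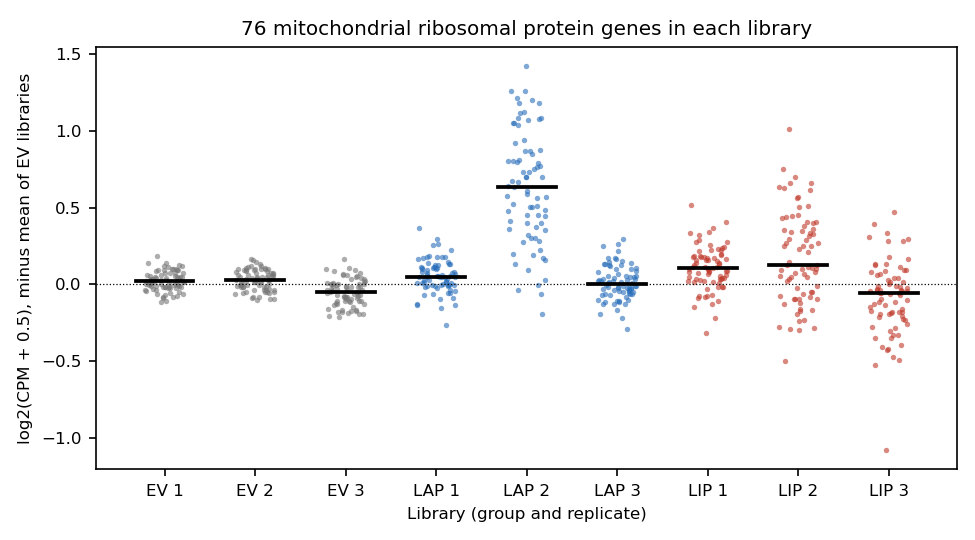
Each point is 1 of the 76 genes in 1 library. The vertical axis gives log2(CPM + 0.5) minus the mean of the 3 EV libraries and the black bar the median over the genes. LAP replicate 2 has a median of 0.63, and in LIP replicates 2 and 3 the genes spread more widely than in EV.

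The deviation of LAP replicate 2 went along with coding length, also outside the mitochondrial ribosome. The members are short genes, with a median coding length of 582 bp and none above 1326 bp, compared with a median of 1389 bp over the genes averaging 50 counts or more. Among all genes with up to 400 bp of coding sequence (n = 485), the median log2 deviation of LAP replicate 2 from EV was 0.74, and among those over 3000 bp (n = 1424) it was -0.32. The members followed the same order, with medians of 0.81 (up to 400 bp, n = 12), 0.77 (over 400 and up to 600 bp, n = 28), 0.51 (over 600 and up to 900 bp, n = 21) and 0.30 (over 900 and up to 1500 bp, n = 15). In each of these classes the median of the members was above that of all genes, which was 0.74, 0.42, 0.22 and 0.03. LIP replicate 2 showed a trend in the same direction at lower levels, with member medians of 0.38, 0.25, 0.11 and -0.13. Across the 76 genes of 1 library, Spearman's rho between deviation and coding length was -0.51 in LAP replicate 2 and -0.54 in LIP replicate 2, and between -0.22 and 0.29 in the others. These genes share the library and its depth and are not independent. The part of coding length in the comparisons was addressed only by the fits given beside them, and where the trend comes from was not tested.

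**Figure D2:**
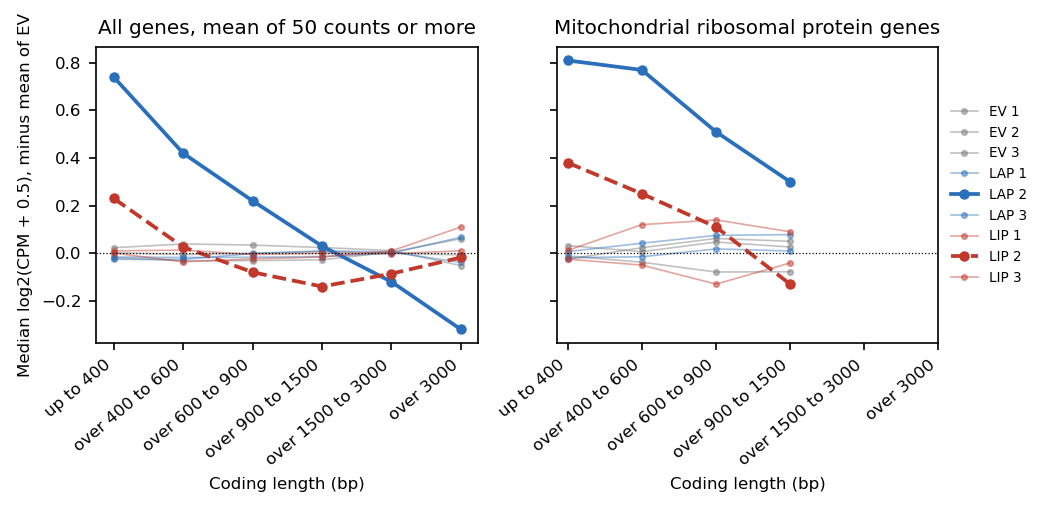
The vertical axis gives the median log2(CPM + 0.5) minus the mean of the EV libraries, by class of coding length in bp, with 1 line per library. In LAP replicate 2 the median of all genes (left) goes from 0.74 in the shortest class to -0.32 in the longest, and that of the members (right) from 0.81 to 0.30. No member is longer than 1500 bp.

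Expression of LAP left no mitochondrial ribosomal protein mRNA past the threshold against EV, although 72 of the 76 members had a positive log2 fold change. With edgeR's quasi-likelihood test and Benjamini-Hochberg adjustment over 18156 genes, 0 of 76 members passed an adjusted p of 0.05 (background 0.0606% of all genes), and DESeq2 and edgeR's exact test also called 0. Before adjustment, 5 members were higher with a p under 0.05 (background 1.93%) and 0 were lower (background 1.34%). The 5 are Mrpl47, Mrps28, Mrps6, Mrpl48 and Mrpl13. Of the members, 94.7% were above 0, compared with 52.2% of all genes tested. The median log2 fold change of the members was 0.26, beside 0.016 over all genes tested. The groups did not overlap for 12 members, all higher in LAP, or 15.8% of the members (background 3.96% higher and 3.61% lower). Without LAP replicate 2, 47 of the 76 log2 fold changes were above 0 and their median was 0.023.

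Mrpl47, a protein near the exit of the nascent chain, had the smallest p of LAP against EV. It was at 17.3, 20.8 and 18.2 CPM in EV and at 23.1, 39.8 and 21.8 CPM in LAP, without overlap between the groups but with the highest LAP value far above the others. Its log2 fold change was 0.57 ± 0.215 (SE, n = 3 per group; edgeR adjusted p = 0.918; two-sided exact permutation p = 0.1, the smallest that 3 against 3 can give). Without LAP replicate 2 the log2 fold change was 0.26. Mrps28, a small-subunit protein, was at 22.2, 22.9 and 21.9 CPM in EV and at 25.4, 46.4 and 24.4 CPM in LAP, with a log2 fold change of 0.51 ± 0.217 (edgeR adjusted p = 0.918), or 0.16 without LAP replicate 2. Mrps6 was at 57.0, 63.7 and 64.9 CPM in EV and at 74.0, 119 and 63.5 CPM in LAP, so the groups overlapped, with 0.45 ± 0.202 (edgeR adjusted p = 0.918) and 0.15 without LAP replicate 2. Among the members with a negative log2 fold change, Mrps5 (-0.063), Mrps15 (-0.034) and Mrpl4 (-0.027) had the smallest p, and these differences were below their SE.

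The libraries of the same number in LAP and EV deviated together, so the comparison was also made with the replicate number as a block. The block gave 54 genes past the threshold (background 0.297%) and 0 members. It gave 22 members that were higher with an unadjusted p under 0.05 (background 3.5%), beside 5 without the block. LAP replicate 2 is part of both fits, and no fit with the block was run without it. Leaving that library out of the fit without the block gave 0 such members. The share of all genes there was not determined. Removing the trend on coding length, an alternative added after the data were seen, left 61 members above 0 with a median of 0.14.

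In cells with LIP, no mitochondrial ribosomal protein gene passed the threshold against EV and the median of the group was close to that of all genes. With edgeR's quasi-likelihood test over 18203 genes, 0 of 76 members passed the threshold (background 0.396%), and likewise 0 with DESeq2 and the exact test. Before adjustment, 1 member was higher, Mrpl24 (background 4.23%), and 1 was lower, Mrpl39 (background 6.75%). Of the log2 fold changes, 55 were above 0 (72.4%, background 54%). The median of all 76 was 0.069, beside 0.039 over all genes tested and 0.01 over genes averaging 50 counts or more. All 76 log2 fold changes were smaller than 0.5 in size, with a median SE of 0.164. The groups did not overlap for 9 members that were higher (background 6.8%) and for 2 that were lower (background 8.83%).

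Mrpl39, a large-subunit protein special to mitochondria, had the lowest log2 fold change. It was at 52.4, 53.0 and 53.0 CPM in EV and at 47.7, 37.3 and 36.5 CPM in LIP, and every LIP library was below every EV library. The log2 fold change was -0.38 ± 0.16 (SE, n = 3 per group; edgeR adjusted p = 0.404; two-sided exact permutation p = 0.1). Mrps28 was also lower in every LIP library, at 21.2, 18.2 and 19.5 CPM, with -0.19 ± 0.167 (edgeR adjusted p = 0.706). Mrps6 had -0.27 ± 0.246 with overlapping groups, which rested on LIP replicate 3. Without that library it was 0.02.

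On the other side, Mrpl24, a protein of the exit site region, was at 19.5, 19.4 and 19.5 CPM in EV and at 21.1, 30.3 and 25.7 CPM in LIP, with 0.40 ± 0.182 (edgeR adjusted p = 0.454). LAP gave 20.6, 31.3 and 23.3 CPM for this gene, and in both groups the highest value was that of the library numbered 2. Mrpl23, which lies at the exit site too, had 0.37 ± 0.181 (edgeR adjusted p = 0.495) and Mrps24, at the mRNA entry of the small subunit, 0.35 ± 0.182 (edgeR adjusted p = 0.531), both with overlapping groups. Without LIP replicate 2 the log2 fold changes were 0.26 (Mrpl24), 0.25 (Mrpl23) and 0.17 (Mrps24). Mrpl34 and Mrps31, which had the next smallest p among the higher members and were chosen after their values were seen, did not overlap with EV. Mrpl34 was at 27.4, 26.4 and 27.5 CPM in EV, 28.4, 40.5 and 29.2 CPM in LAP and 32.9, 32.8 and 33.4 CPM in LIP, and Mrps31 at 24.2, 25.4 and 25.8 CPM, 28.5, 35.9 and 30.9 CPM, and 32.5, 26.4 and 35.1 CPM. Their log2 fold changes in LIP against EV were 0.29 ± 0.151 and 0.32 ± 0.168 (edgeR adjusted p = 0.534 and 0.532). Both lie on chromosome 8, whose genes had a median of 0.097 in this comparison. LAP and LIP share the EV libraries.

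**Figure D3:**
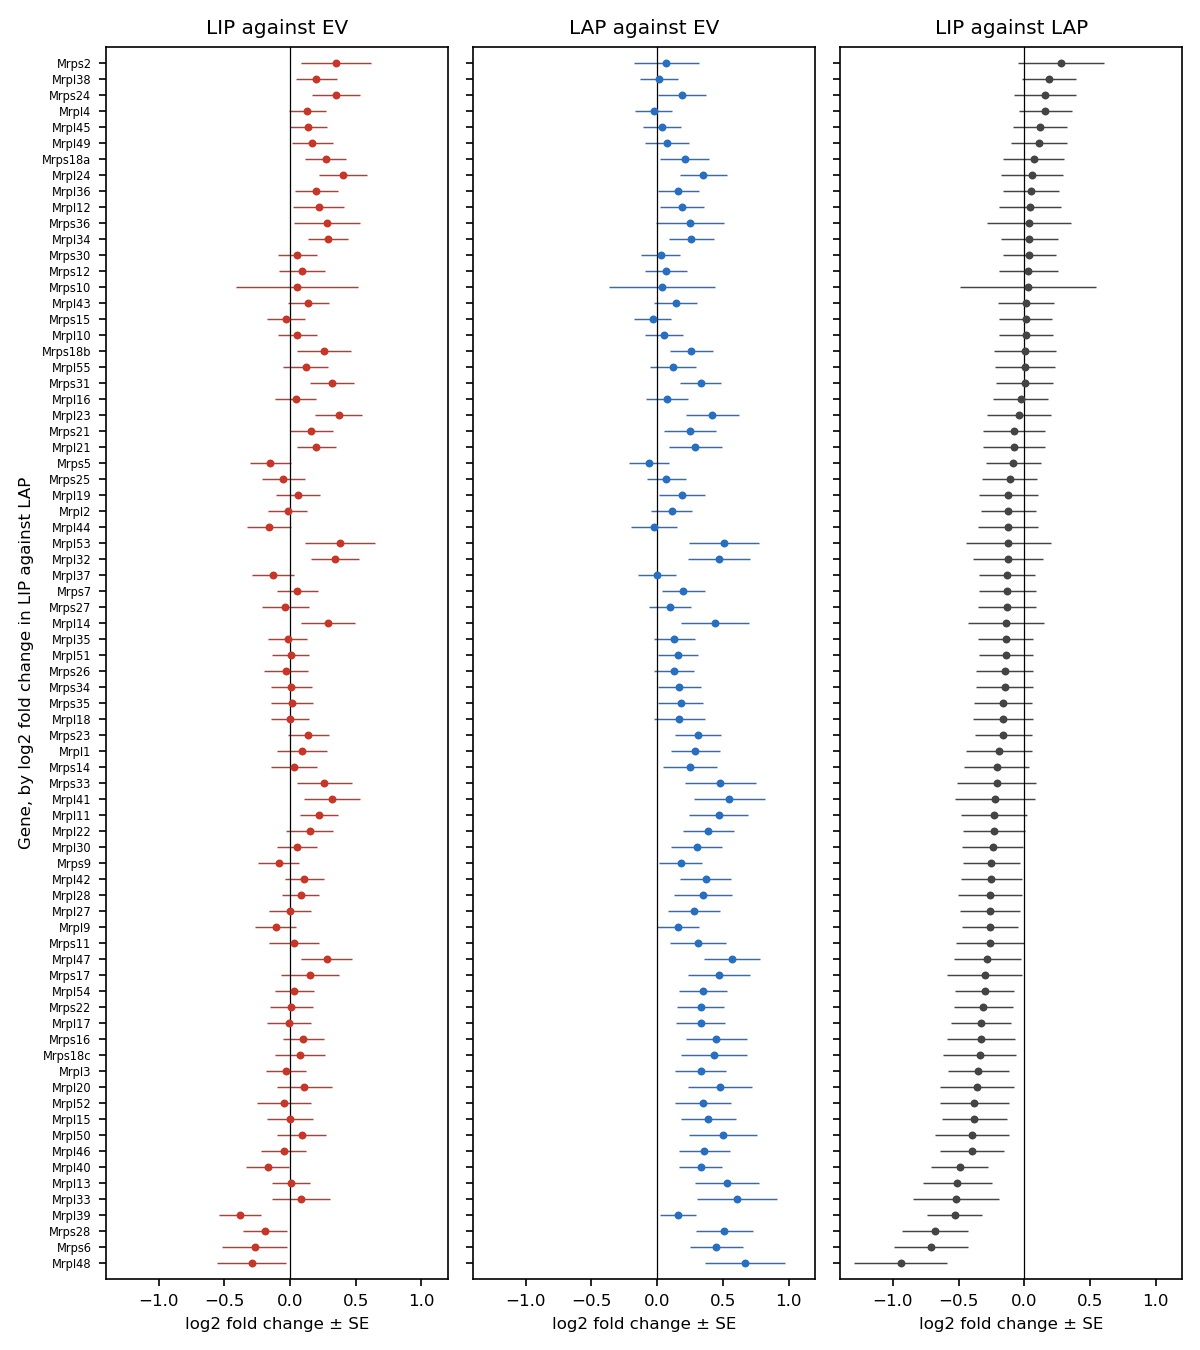
Log2 fold changes (points) with their standard errors (bars) of the 76 genes in the 3 comparisons, in the order of LIP against LAP. In LIP against EV all values lie within 0.5 of 0, in LAP against EV 72 of 76 are above 0, and in LIP against LAP Mrpl48, Mrps6, Mrps28 and Mrpl39 are the lowest.

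Set directly against each other, LIP and LAP gave 0 members past the threshold in the test without covariates, and 4 when the libraries were paired by number. Over 18166 genes, edgeR's quasi-likelihood test called 0 of 76 members (background 1.05%), and DESeq2 and the exact test also called 0. Before adjustment, 5 members were lower in LIP (background 5.98%), namely Mrps28, Mrpl48, Mrpl39, Mrps6 and Mrpl40, and 0 were higher (background 3.3%). Of the log2 fold changes 21 were above 0 (27.6%, background 52.6%). The median of all 76 was -0.14, beside 0.021 over all genes. Without LAP replicate 2 the direction turned, with 49 above 0 and a median of 0.048. The groups did not overlap for 4 members that were lower (background 6.9%) and 2 that were higher, Mrpl4 and Mrps2 (background 5.91%).

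The libraries of the same number deviated together in this comparison too. With the replicate number as a block, 1183 genes passed the threshold (background 6.51%), and among them 4 members, all lower in LIP. They were Mrps6 (-0.76 ± 0.181, edgeR adjusted p = 0.00221), Mrpl48 (-0.86 ± 0.259, edgeR adjusted p = 0.0235), Mrps28 (-0.63 ± 0.194, edgeR adjusted p = 0.0303) and Mrpl39 (-0.54 ± 0.177, edgeR adjusted p = 0.0436). The share of 4 in 76 members was near the background. The calls changed when a pair was left out, which also leaves fewer libraries. Left out in turn, pair 1 left Mrps6 past the threshold, pair 2 left 0 members and pair 3 left Mrpl48. In that order of pairs, the log2 fold changes were -0.66, -0.50 and -0.45 for Mrpl39 and -1.06, -0.64 and -0.54 for Mrps6. For Mrpl48 they were -1.03, -0.60 and -0.92, and for Mrps28 -0.81, -0.30 and -0.75. Lost calls alone therefore do not show that a difference rested on a single pair. With the trend on coding length removed together with the block, only Mrps6 passed (-0.63 ± 0.164, edgeR adjusted p = 0.013). The share of all genes called in this fit and in those with a pair left out was not determined. These counts of members have no background.

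The levels of these 4 members show which libraries carried the difference. Mrpl39 was at 59.5, 60.7 and 57.9 CPM in LAP, all above the 3 LIP libraries, and its log2 fold change hardly changed without LAP replicate 2 (-0.54, beside -0.53 with all libraries). Mrps6 was at 66.8, 57.7 and 29.0 CPM in LIP, and its groups overlapped, since LAP replicate 3 was at 63.5 CPM. Without LAP replicate 2 its log2 fold change was -0.43 and without LIP replicate 3 it was -0.43 as well. Mrps28 did not overlap between LAP and LIP, but the log2 fold change went from -0.68 to -0.35 without LAP replicate 2. Mrpl48 was at 3.70, 8.80 and 3.85 CPM in LAP and at 2.61, 3.31 and 2.39 CPM in LIP, with -0.94 ± 0.353 (edgeR adjusted p = 0.331), or -0.45 without LAP replicate 2. It had 64 to 245 counts per library. Higher in LIP were Mrps2 (0.28), Mrpl38 (0.19), a protein of the central protuberance, and Mrpl4 (0.16), a protein of the exit tunnel, with values below their SE.

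**Figure D4:**
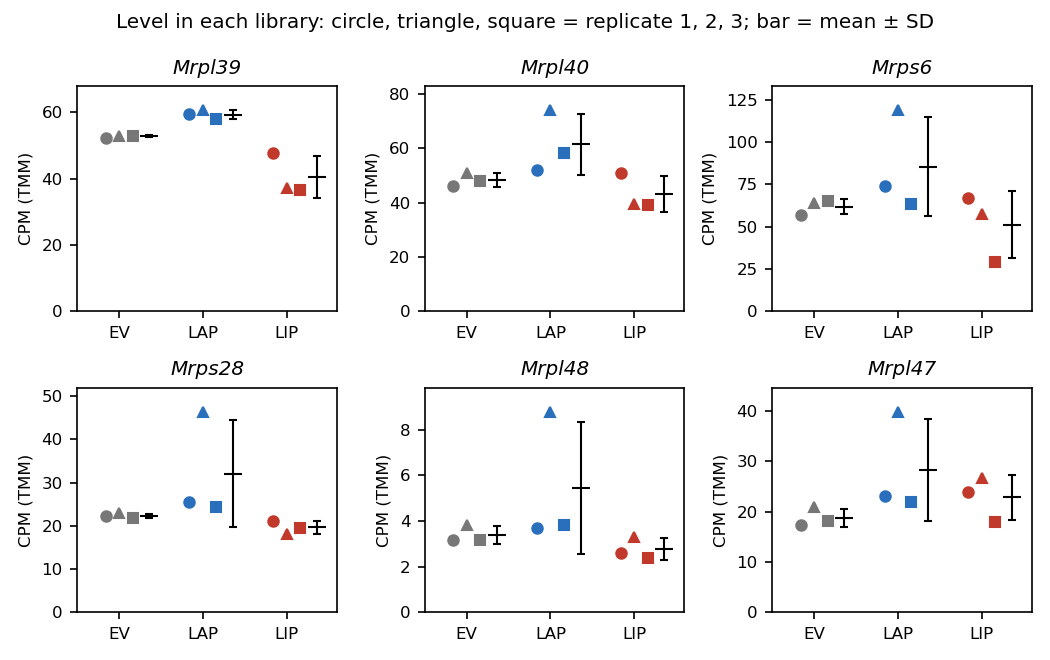
Level in CPM of 6 genes in each library, with the marker shape giving the replicate number and the bar the mean ± SD of the group (n = 3). For Mrpl39 all 3 LIP libraries are below the 6 others, whereas for Mrps28, Mrpl48 and Mrpl47 LAP replicate 2 is far above all other libraries.

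Mrpl39, Mrpl40 and Mrps6 are the 3 members on chromosome 16, and genes of the whole chromosome were lower in LIP. This grouping was made after the values were seen. Mrpl39 lies from 84718281 to 84735244 on the minus strand, Mrpl40 from 18872018 to 18876637 on the minus strand and Mrps6 from 92058336 to 92112227 on the plus strand (GRCm38.p6). Mrpl40, a protein of the central protuberance, was at 46.1, 51.0 and 48.0 CPM in EV, 52.1, 74.1 and 58.1 CPM in LAP and 50.8, 39.3 and 39.1 CPM in LIP, so that LIP was below LAP without overlap. In LIP against LAP it had -0.49 ± 0.217 (edgeR adjusted p = 0.478, or 0.0914 with the block). Among the 287 other genes of chromosome 16 that averaged 50 counts or more, 89.2% were lower in LIP than in LAP, with a median of -0.37 on the log2 scale, or -0.35 without LAP replicate 2. Against EV, 84% of them were lower in LIP with a median of -0.28, whereas 31.4% were lower in LAP with a median of 0.064.

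By library, the median log2 deviation of all 290 genes of the chromosome from EV was -0.15, -0.31 and -0.40 in LIP and 0.037, 0.082 and 0.15 in LAP. Chromosome 14 came next, with a median of -0.23 in LIP against LAP, and its members Mrpl52 and Mrps16 had -0.38 and -0.33. Without LAP replicate 2, however, these were -0.068 and 0.062, while the median of the other 289 genes of the chromosome stayed at -0.23. Chromosome 19 went the other way, with a median of 0.17 and 28.4% lower over 341 other genes (0.14 without LAP replicate 2), while its 5 members had a median of -0.027. Slc5a3, the transporter gene that shares exons with Mrps6, was at 59.2, 67.2 and 83.2 CPM in EV, 75.1, 61.6 and 80.3 CPM in LAP and 73.8, 37.3 and 33.4 CPM in LIP. In which way the chromosome, or reads of Slc5a3, contribute to the values of these members was not tested.

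**Figure D5:**
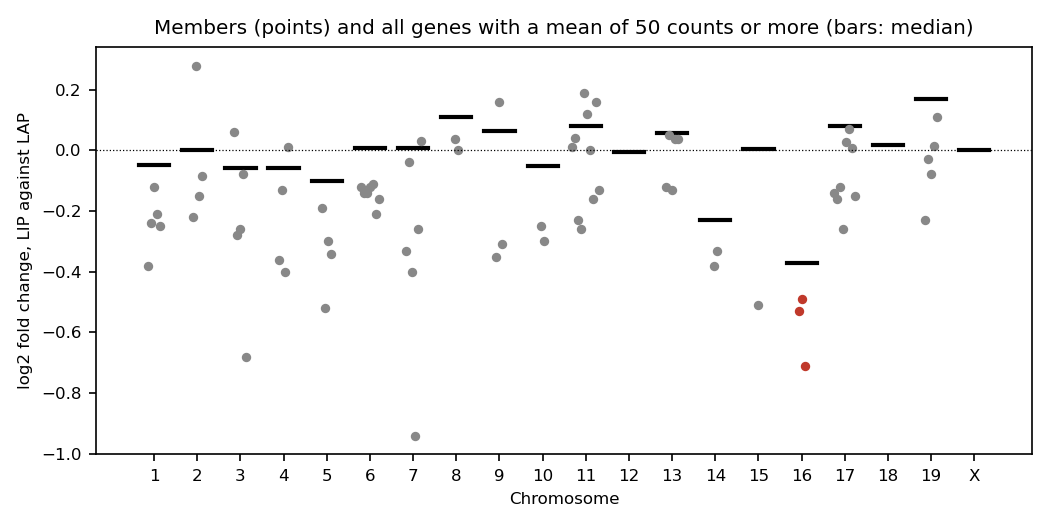
Log2 fold changes in LIP against LAP of the 76 members (points) by chromosome, beside the median of all genes averaging 50 counts or more on that chromosome (bars). On chromosome 16, the bar is at -0.37 and the 3 members (red) are at -0.71, -0.53 and -0.49.

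Grouped by subunit name and by whether the protein is shared with bacteria, the members had similar medians, beside 0.039, 0.016 and 0.021 over all genes tested. Without the block, 0 genes of any group passed the threshold. For the 16 small-subunit proteins shared with bacteria the median was 0.054 in LIP against EV, 0.22 in LAP against EV and -0.17 in LIP against LAP. For the 13 other proteins named for the small subunit, the medians were 0.056, 0.21 and -0.13. The 30 large-subunit proteins shared with bacteria had 0.087, 0.30 and -0.15, and the 17 that are special to mitochondria had 0.033, 0.33 and -0.22. Without LAP replicate 2 the medians in LAP against EV were 0.0037, 0.023, 0.029 and 0.025 in the same order of groups, and those in LIP against LAP turned positive, to 0.078, 0.02, 0.058 and 0.029.

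Smaller regions of the large subunit were also described. The 5 proteins of the L7/L12 stalk and its base, which recruits translation factors, were all above 0 in LIP against EV (median 0.22) and in LAP against EV (median 0.35). In LIP against EV, Mrpl11 and Mrpl12 had 0.22, Mrpl10 0.056, Mrpl54 0.033 and Mrpl53 0.38. Mrpl53 was at 30.7, 28.7 and 29.6 CPM in EV and 27.9, 60.3 and 27.4 CPM in LIP, so only LIP replicate 2 was above EV. All stretches of 50 bases in its transcript (100%) are shared with Gm42688. The 6 proteins at the exit site had medians of 0.22 and 0.37. The 8 proteins of the central protuberance, which bridges to the small subunit, had medians of -0.024 and 0.30, and -0.32 in LIP against LAP. With LAP replicate 2 left out, the medians in LAP against EV were 0.034 (stalk), 0.14 (exit site) and 0.035 (central protuberance), and that of the central protuberance in LIP against LAP was -0.038. With 5 to 8 genes each and 0 genes past the threshold without the block, these medians are descriptions. In the fit with the block, Mrpl48 of the central protuberance passed in LIP against LAP.

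The members whose promoters hold the C/EBP letters were not called in any comparison. In LAP against EV, the log2 fold changes of Mrpl28, Mrpl42 and Mrps22 were 0.35, 0.37 and 0.33, and in LIP against EV they were 0.08, 0.11 and 0.0097, beside member medians of 0.26 and 0.069. Mrpl28 was at 69.2, 67.7 and 74.9 CPM in EV and 71.3, 134 and 67.6 CPM in LAP, and Mrpl42 at 59.8, 60.6 and 59.0 CPM in EV and 59.6, 108 and 66.6 CPM in LAP. In both genes the groups overlapped and LAP replicate 2 was far above the other libraries. Mrps22 was at 31.2, 33.8 and 29.9 CPM in EV and 34.5, 51.6 and 33.9 CPM in LAP, so the groups did not overlap, while LIP with 35.7, 27.6 and 32.2 CPM overlapped both. The head-to-head neighbours Mrpl46 and Mrps11 had log2 fold changes of 0.36 and 0.31 in LAP against EV and of -0.40 and -0.26 in LIP against LAP.

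Other genes needed for translation in mitochondria also had no member past the threshold in the fits without the block. Of 7 mitochondrial ribosomal proteins with other symbols, 5 were above 0 in LIP against EV (median 0.10) and 7 in LAP against EV (median 0.25, or 0.0018 without LAP replicate 2). Chchd1, a small-subunit protein, was at 42.8, 43.8 and 38.9 CPM in EV, 38.9, 115 and 37.7 CPM in LAP and 43.9, 100 and 38.5 CPM in LIP, so that both libraries numbered 2 were above all the others. Of 23 assembly factors, 16 were above 0 in LIP against EV, with a median of 0.088. The one with the smallest p was Mterfd2, which acts with an rRNA methyltransferase in the assembly of the large subunit. Mterfd2 was at 36.7, 22.4 and 28.9 CPM in EV, 34.7, 28.9 and 18.7 CPM in LAP and 18.0, 17.4 and 15.8 CPM in LIP, and every LIP library was below every EV and LAP library. In LIP against EV its log2 fold change was -0.78 ± 0.201 (edgeR adjusted p = 0.13). Against LAP it was -0.67 ± 0.25 (edgeR adjusted p = 0.331). With the block Mterfd2 passed the threshold against LAP (-0.63, edgeR adjusted p = 0.0283) and against EV (-0.76, edgeR adjusted p = 0.0478).

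Of 15 translation factors, 17 mitochondrial aminoacyl-tRNA synthetases, 7 genes of mitochondrial DNA transcription and replication and 8 transcriptional regulators, 0 passed the threshold in any comparison, with or without the block. Their medians in LIP against EV were 0.034, 0.047, 0.15 and 0.17. Among the regulators, Nrf1 had the smallest p in LAP against EV (-1.38 ± 0.436, edgeR adjusted p = 0.918). It also had the smallest p among them in LIP against LAP (1.01 ± 0.538, edgeR adjusted p = 0.618). The SE of 0.436 in LAP against EV lies above the median SE of the members, 0.185. Levels of Nrf1 in single libraries and its value without LAP replicate 2 are not given here. Its log2 fold changes are therefore not read as a change of the gene. Oxa1l, whose product inserts newly made proteins into the inner membrane, was at 55.3, 54.1 and 51.1 CPM in EV and 43.6, 40.5 and 44.5 CPM in LIP (-0.32 ± 0.146, edgeR adjusted p = 0.454). Iars2, the mitochondrial isoleucyl-tRNA synthetase, had -0.41 ± 0.181 with overlapping groups (edgeR adjusted p = 0.444). Peo1, the helicase of mitochondrial DNA, was at 48.0, 46.1 and 44.6 CPM in EV and 62.7, 64.6 and 52.5 CPM in LIP, without overlap (0.37 ± 0.152, edgeR adjusted p = 0.387). Gabpa, which binds the ETS motif, was at 122, 137 and 148 CPM in EV and 129, 97.3 and 108 CPM in LIP. Its groups overlapped (-0.28 ± 0.161, edgeR adjusted p = 0.58). Values of Oxa1l, Iars2, Peo1 and Gabpa were not set beside the medians of their chromosomes. A shift of a whole chromosome is thus not separated from them.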

How the data were processed

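The authors sequenced RNA as 50 bp single-end reads, aligned them with TopHat 1.4.1 to mm10 with RefSeq annotation, counted reads per gene with HTSeq 0.5.4 and deposited raw counts without normalization (9 libraries, 0 count columns left unused). Genes with at least 1 count in the 6 libraries of a comparison were scaled by TMM and tested with edgeR 4.0.16 (quasi-likelihood, no covariates, R 4.3.3), and p-values were adjusted over all of them by the Benjamini-Hochberg method (threshold 0.05). Standard errors were derived from the estimate and its F value. Mean levels are TMM-scaled CPM over all 9 libraries. DESeq2 1.42.0 and other alternatives were run. The main fit and the fit with the trend on coding length removed were tested on simulated data that held no pairs and no such trend. The fits with the replicate block, DESeq2 and the exact test were not tested in this way.

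Replicate numbers come from the labels. Deviations of same-numbered libraries correlated over 11535 genes with r = 0.524, 0.21 and 0.511 (LAP and EV) and 0.558, 0.413 and 0.466 (LIP and LAP), so these were taken as pairs, but with 0.29, -0.121 and 0.231 for LIP and EV. Coding lengths (20284 genes) come from GENCODE vM21, positions and promoters from RefSeq (GRCm38.p6).

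Members and lists were chosen with earlier results of these data known. Named were members past the threshold in the main, blocked or DESeq2 fit, in each comparison the 3 smallest p in each direction (mean of at least 50 counts), the 3 most and 3 least abundant per kb, the Mrps18 paralogs, members under 50 counts, and of each pathway list the smallest p in LIP against EV. Others were named after their values were seen, such as Mrpl40, Mrpl34, Mrps31, Mrpl13 and the promoter examples.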

Additional observations from a re-analysis of the deposited data

How the results depend on the processing

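In LIP against EV and LAP against EV, 0 members passed the threshold under every alternative run. In LIP against LAP, 4 passed with the replicate block, 1 with the block and the length trend removed, and 1, 0 and 1 with the block and pair 1, 2 or 3 left out. Among these fits, the share of all genes passing was determined only for the replicate block with all libraries. With a library left out in turn, members above 0 ranged from 46 to 61 (median 0.026 to 0.16) in LIP against EV, from 47 to 73 (median 0.023 to 0.37) in LAP against EV and from 9 to 49 (median -0.23 to 0.048) in LIP against LAP. The lowest LAP against EV values and the highest LIP against LAP values are those without LAP replicate 2, and the value of 0.16 is that without LIP replicate 3. In LIP against LAP, 36 were above 0 with both libraries numbered 2 left out, and 11 and 34 with the block and pair 1 or 2 left out. Of 332 values of named members under alternatives, 322 kept their direction and side of the threshold, 7 passed it under a block, and 3 reversed. With a library left out, Mrps6 ranged from -0.50 (without LIP replicate 1) to 0.02 (without LIP replicate 3) in LIP against EV, and in LAP against EV Mrpl4 ranged from -0.069 to 0.026 (without LAP replicate 1) and Mrps5 from -0.14 to 0.014 (without LAP replicate 2). Adjusted p of Mterfd2 in LIP against EV was 0.0478 with the replicate block, though those libraries share only a number (r from -0.121 to 0.29). In LIP against EV the block changed no call of a member. With the shortest transcripts, 1 of the 3 most abundant members per kb stayed. The length and pair alternatives were chosen after seeing the data. The causes were not tested.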
